A study of Mus musculus with 8 samples.

Results

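The Fos and Jun genes encode the subunits of AP-1, a transcription factor that binds DNA as a pair of leucine zipper proteins. The 7 genes taken here were Fos, Fosb, Fosl1 and Fosl2 of the Fos family and Jun, Junb and Jund of the Jun family. They were listed by family name, and the family was chosen with earlier results of these data known. Of the 7 genes, 6 had at least 1 probe set annotated to them alone, among 22180 genes named in this way. Fosl1 had none. A probe set is a group of short DNA probes on the array whose brightness is summarised as 1 value. For each gene with several probe sets, that of highest mean over all arrays was used.

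Fos proteins act mainly in pairs with Jun proteins, whereas Jun proteins also pair among themselves. In neurons, calcium entry switches on Fos, Fosb and Junb through transcription factors that are already present, mainly CREB and SRF with its ternary complex partners, so these genes are widely read as a record of recent activity. Jund is known for a steadier level in many cells, and Fosl1 and Fosl2 for a slower or weaker response.

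The cells were hippocampal neurons from C57BL/6J mouse embryos at stage E18.5, an inbred laboratory strain with no transgene named, kept for 11 days in vitro in a neuronal medium to which AraC, a drug that kills dividing cells, was added at the medium changes. One group of 4 cultures was untreated. The other group of 4 was held in 55 mM KCl for 4 h, which depolarises neurons and opens their calcium channels. The same dissection, medium and AraC apply to both groups, each array has a mouse number of its own in the labels, and both groups carry the replicate numbers 1 to 4.

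Array medians over 34472 probe sets were 4.44 to 4.48 (log2). Both arrays numbered 1 stood apart on the first principal component, which took 36.6% of the variance, at scores of 43.2 and 48.6 against -26.6 to 4.6 in the other 6. Markers of neurons were bright: over 12 of them the mean log2 value was 8.84 to 9.47 in untreated and 9.05 to 9.73 in KCl arrays. Markers of astrocytes were bright as well, at 8.51 to 9.32 and 8.51 to 9.03 over 7 genes, with the filament gene Gfap at 10.45 to 11.25. The astrocyte marker S100b (mean of 4.66) and the neuron marker Gad1 (5.15) were dim. Markers of the oligodendrocyte lineage (6 genes, 4.87 to 5.29), microglia (6 genes, 4.12 to 4.43), endothelium (5 genes, 4.20 to 4.82) and fibroblasts (6 genes, 4.32 to 4.74) were dimmer in all 8 arrays, although Olig1, Olig2 and Kdr stood higher (means of 7.29, 6.78 and 6.73). In RNA from whole cultures, a change in the number of cells of a type and a change in RNA per cell cannot be told apart.

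After 4 h of KCl, 4 of the 6 measured genes rose: Fosb 43-fold, Fos 18.2-fold, Junb 7.29-fold and Fosl2 3.32-fold. None fell, and Jun (2.32-fold) and Jund (1.74-fold) did not pass the test, which was an adjusted p under 0.05 with limma over all genes. Among all 22180 genes, 1.34% rose, 1.02% fell and 2.36% passed in either direction. The KCl arrays lay wholly above the untreated arrays for 5 of the 6 genes, all but Jund, against 3.83% of all genes. In each of the 4 same-numbered pairs the KCl array was the higher for all 6, as it was for 11.0% of all genes. With the replicate number as a block, 5 of the 6 rose, against 2.43% of all genes.

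**Figure D1:**
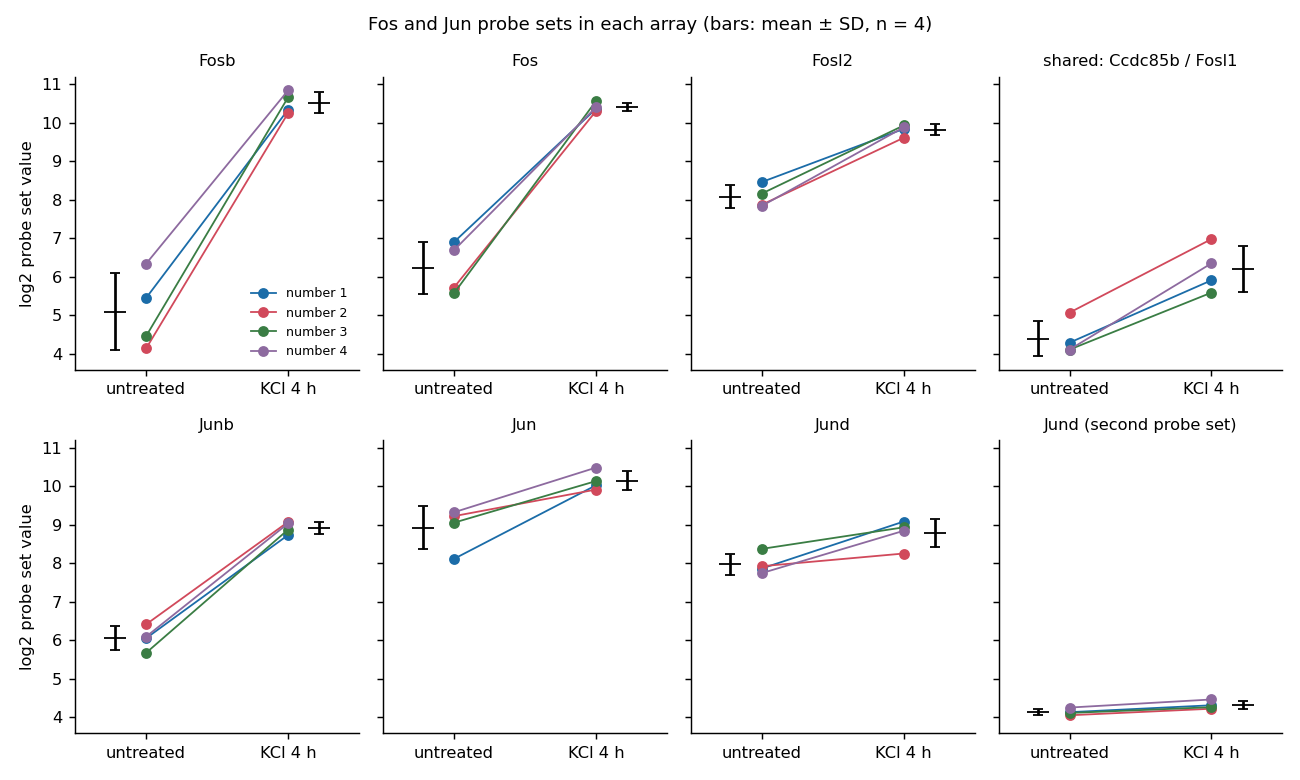
The log2 value of each Fos and Jun probe set in each of the 8 arrays, untreated on the left and KCl on the right of each panel, with a line joining arrays of the same number and black bars for the mean and SD of 4 arrays. Untreated Fosb ran from 4.14 to 6.34 and KCl Fosb from 10.25 to 10.84, whereas the panels of Jund and of its second, dim probe set show the groups overlapping.

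Fosb, whose shorter splice form lacks a transactivating domain and is known for persisting in stimulated neurons, showed the largest rise of all 22180 genes. Its 1 probe set (17487211) gives a single value for the gene, so the splice forms were not told apart. The log2 values were 5.45, 4.14, 4.46 and 6.34 in untreated arrays 1 to 4 and 10.34, 10.25, 10.66 and 10.84 in the KCl arrays. The lowest KCl value lay 3.91 above the highest untreated one. The untreated arrays were spread over 2.21 log2 units and the KCl arrays over 0.59, with arrays 1 and 4 the highest of the untreated group. The log2 change was 5.43 (SE 0.44, limma adjusted p = 0.00107). The untreated values of 4.14 and 4.46 lay below or within the range of the array medians, 4.44 to 4.48. RMA, the method that made these values, compresses differences near background, so the size of the rise is less certain than its direction.

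Fos, the founding immediate-early gene of the family, had the largest rise of all genes after Fosb. Its values (probe set 17277387) were 6.90, 5.72, 5.57 and 6.69 in untreated arrays 1 to 4 and 10.36, 10.3, 10.56 and 10.4 after KCl. The KCl arrays sat within 0.26 of each other, while the untreated arrays ran over 1.33, again with arrays 1 and 4 highest. The groups were 3.40 apart at their nearest. The log2 change was 4.19 (SE 0.29, limma adjusted p = 0.00054).

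Fosl2, also called Fra-2, rose from 8.08 ± 0.29 to 9.81 ± 0.14 (SD, n = 4 each). Its probe set (17436237) read 8.46, 7.87, 8.16 and 7.84 in the untreated arrays and 9.84, 9.61, 9.93 and 9.88 after KCl. No KCl array came within 1.15 of an untreated one. The log2 change was 1.73 (SE 0.15, limma adjusted p = 0.00169), and 63 genes had larger rises.

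Fosl1, also called Fra-1, could not be given a value of its own, because its probe set (17356427) is annotated to both Ccdc85b and Fosl1. That shared probe set read 4.29, 5.07, 4.11 and 4.11 in untreated arrays and 5.91, 6.98, 5.59 and 6.35 after KCl. The groups did not overlap, and array 2 was the highest of both. In 3 of the 8 arrays, all of them untreated, the probe set lay below that array's own median. Tested among all 34472 probe sets, of which 0.978% rose, it rose 3.51-fold (log2 change 1.81, SE 0.33, limma adjusted p = 0.0342). Which of its genes the signal came from was not tested.

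Junb, a Jun protein that is itself an immediate-early gene and a weaker activator than Jun on many sites, had the smallest p of the 6. Its probe set (17511259) read 6.05, 6.41, 5.67 and 6.09 in untreated arrays and 8.73, 9.07, 8.87 and 9.03 after KCl. Both groups were tight, with a gap of 2.31 between them. The log2 change was 2.87 (SE 0.16, limma adjusted p = 0.000166), and 9 genes had larger rises.

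Jun, the main partner of Fos and the substrate after which JNK kinases are named, had means of 8.93 ± 0.56 untreated and 10.14 ± 0.25 after KCl (SD, n = 4 each). Its probe set (17427312) read 8.11, 9.22, 9.05 and 9.32 untreated and 10.02, 9.91, 10.13 and 10.48 after KCl. The groups did not overlap, with a gap of 0.59, and untreated array 1 lay lowest. The log2 change of 1.21 (SE 0.26) missed the threshold with limma (adjusted p = 0.0586) and passed it with the replicate number as a block (SE 0.193, adjusted p = 0.0243). Without untreated replicate 1 the change was 0.94 (adjusted p = 0.0268), and without both arrays numbered 1 it was 0.98 (adjusted p = 0.0363). In the 7 fits without another single array, Jun did not pass (adjusted p up to 0.156). Untreated array 1 also had the lowest mean over neuron markers, 8.84 against 9.24 to 9.47 in the other 3 untreated arrays, and the highest over astrocyte markers, 9.32 against 8.51 to 8.87. The part of cell makeup in the low Jun value of that array was not tested.

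Jund, which lacks the rapid induction of the other Jun genes in many cell types, stood at 7.97 ± 0.27 and 8.77 ± 0.36 (SD, n = 4 each). The brighter of its probe sets (17502001) read 7.86, 7.92, 8.37 and 7.74 untreated and 9.08, 8.25, 8.93 and 8.84 after KCl. The groups overlapped, since KCl array 2 lay below untreated array 3. The log2 change was 0.80 (SE 0.20, limma adjusted p = 0.0981, 0.0522 with the replicate block). Of 8 fits leaving out 1 array each, only that lacking KCl replicate 2 called Jund (log2 change 0.98, adjusted p = 0.0356). The second probe set of Jund (17510127) read 4.05 to 4.25 untreated and 4.22 to 4.46 after KCl, in each of the 8 arrays below that array's own median, with a log2 change of 0.18 (limma adjusted p = 0.494 among all probe sets).

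The order of the 6 genes by size of change was nearly the same in each pair of arrays. In all 4 pairs Fosb changed most, followed by Fos and then Junb, and Jund changed least. Fosl2 came ahead of Jun in pairs 2, 3 and 4 and behind it in pair 1, where Jun differed by 1.91 and Fosl2 by 1.38. The change of Fosb was 4.89, 6.11, 6.21 and 4.49 in pairs 1 to 4, and that of Fos was 3.46, 4.58, 4.99 and 3.71. Both were larger in pairs 2 and 3, whose untreated values were lower, than in pairs 1 and 4. Each change is the KCl value minus the untreated one, so a lower untreated value by itself makes it larger. The untreated Fosb values of pairs 2 and 3 were also near or below the array medians, where RMA compresses differences. Junb ranged over pairs from 2.65 to 3.20, Fosl2 from 1.38 to 2.04, Jun from 0.69 to 1.91 and Jund from 0.33 to 1.22. Neighbouring ranges overlapped for Fosl2 with Jun and for Jun with Jund, and were separate for Fos with Junb and for Junb with Fosl2. The ranges of Fosb and Fos overlapped, although Fosb was ahead within each of the 4 pairs.

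**Figure D2:**
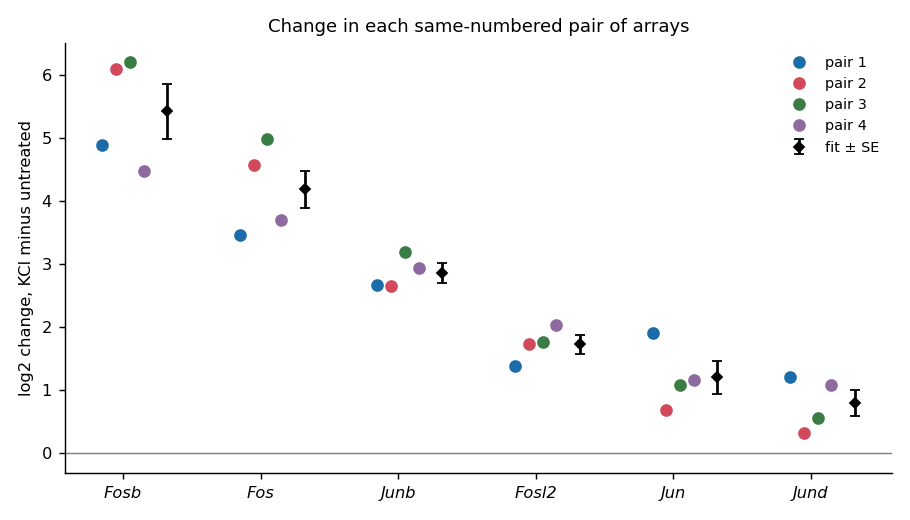
The log2 difference between the KCl and the untreated array of each number, for 6 genes, with black diamonds for the fitted change and its standard error. Fosb ran from 4.49 to 6.21 and Jund from 0.33 to 1.22, and all 24 differences lay above 0.

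Across all named genes, the mean log2 change was -0.01. By size of rise, Fosb, Fos and Junb were places 1, 2 and 10 of 22180, Fosl2 was place 64, Jun place 195 and Jund place 445.

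**Figure D3:**
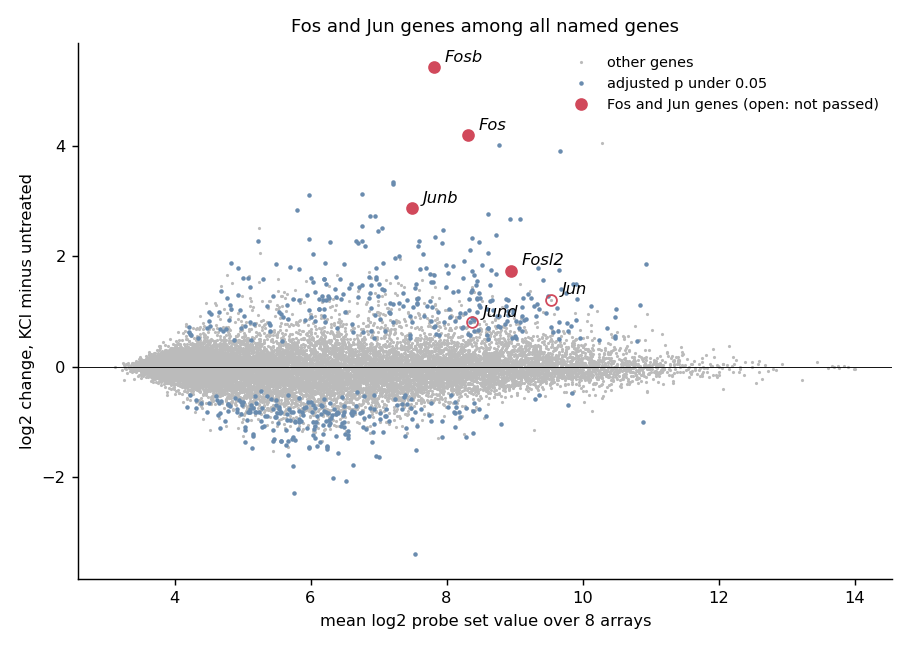
Each of 22180 named genes by its mean log2 value over 8 arrays and its log2 change after KCl, with genes past an adjusted p of 0.05 in blue. Fosb (5.43) and Fos (4.19) are the topmost points, and the open circles of Jun and Jund lie among genes with changes of similar size.

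The sequences just upstream of the start sites are given because calcium-activated CREB, a known inducer of Fos, binds the cyclic AMP response element (CRE) there. RefSeq promoter windows of build GRCm38.p6 were matched for 6 of the 7 genes, all but Fosl1. The 130 bases before the start site are shown for the 3 genes of largest rise and, for comparison, Jun. Capitals mark motif matches: TGACG (the core shared by full and partial CREs), TATAAA (the TATA box), TGACATCA (an AP-1-like octamer known from the Jun promoter) and the MEF2 motif.
Fos: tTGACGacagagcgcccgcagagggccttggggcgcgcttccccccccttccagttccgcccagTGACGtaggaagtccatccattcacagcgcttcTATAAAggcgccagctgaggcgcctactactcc
Fosb: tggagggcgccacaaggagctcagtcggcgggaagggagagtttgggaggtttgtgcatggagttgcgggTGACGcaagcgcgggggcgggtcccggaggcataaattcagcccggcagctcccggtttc
Junb: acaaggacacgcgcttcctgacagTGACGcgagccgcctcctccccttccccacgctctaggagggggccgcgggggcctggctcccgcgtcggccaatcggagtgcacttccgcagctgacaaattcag
Jun: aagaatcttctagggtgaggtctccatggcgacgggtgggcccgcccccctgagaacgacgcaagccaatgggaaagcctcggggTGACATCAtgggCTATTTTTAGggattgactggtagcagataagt
They lie at chr12:85473760-85473889 (plus strand), chr7:19310046-19310175 (minus strand), chr8:84978749-84978878 (minus strand) and chr4:95052223-95052352 (minus strand), each written along its gene's strand.

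TGACG, searched on both strands over the 250 bases before the start site, was found for Fos (first bases at -129 and -66), Fosb (-60) and Junb (-106), all in the gene's own direction. These 3 of 6 genes compare with 18.4% of 32841 windows of the same length. The full CRE TGACGTCA, which contains TGACG, was in none of the 6 and in 1.65% of all windows, and the AP-1 site TGANTCA was in none of the 6 and in 6.94%. Jun held TGACATCA at -45 (3.04% of all windows) and a MEF2 motif at -33 (0.515%), the site of a factor family that calcium also acts on. TATAAA, searched in the gene's direction, was at -33 in Fos (7.69% of all windows), and in Junb the same letters began at base 1 after the annotated start, outside the window. The CArG box, which SRF binds, was in none of the 6 windows and in 1.5% of all windows. Bases further upstream than 250 were not searched, so a CArG box of Fos or another gene lying there would be missed. No motif searched was found in the windows of Fosl2 or Jund. These are matches of letters in a short window, not measured binding.

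**Figure D4:**
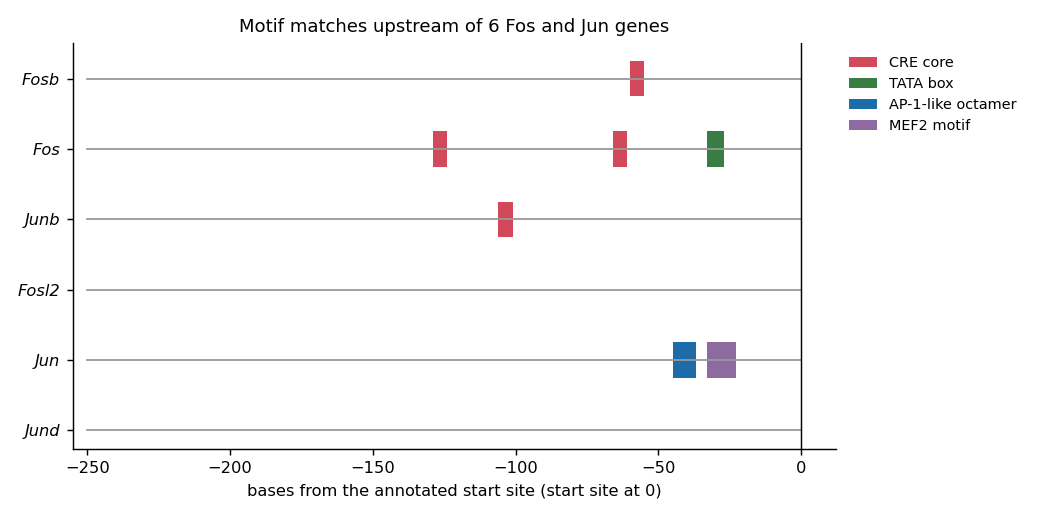
Positions of motif matches in the 250 bases before the annotated start site of 6 genes, in order of their change after KCl, with the start site at 0. CRE cores stand at -60 in Fosb, -129 and -66 in Fos and -106 in Junb, and the lines of Fosl2 and Jund hold no match.

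Other leucine zipper proteins pair with Fos or Jun or compete with them for DNA. Of 13 such genes listed, 12 were measured, 2 rose and none fell, against 1.34% and 1.02% of all genes, and their median log2 change was 0.17 against -0.01 over all genes. Atf3, a stress-inducible partner of Jun proteins, rose 8.73-fold (log2 change 3.13, SE 0.45, limma adjusted p = 0.0132). Its values were 6.45, 4.87, 4.74 and 4.70 untreated and 8.82, 7.35, 8.57 and 8.53 after KCl, and untreated array 1 lay well above the other 3. Mafk, a small Maf protein that lacks an activation domain, rose 3-fold (log2 change 1.59, SE 0.32, limma adjusted p = 0.0449). Its untreated values were 4.52, 4.99, 4.47 and 4.07 and its KCl values 6.60, 6.23, 6.41 and 5.15, so that the groups lay 0.17 apart.

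Maff, another small Maf gene, stood at 4.02 ± 0.20 and 4.71 ± 0.26 (SD, n = 4 each, limma adjusted p = 0.0666, 0.0326 with the replicate block). Batf3, a partner of Jun proteins in immune cells, had a log2 change of -0.27 (adjusted p = 0.38). Mafk kept its call when KCl replicate 4 was left out (adjusted p = 0.0137), lost it when any other single array was (up to 0.134), and lost it without both arrays numbered 1 (0.12). The call of Atf3 was lost without KCl replicate 3 (0.0523), and Maff passed without KCl replicate 4 (0.0376) or untreated replicate 1 (0.0469).

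A list of 24 genes held kinases, transcription factors and degradation factors known to act on Fos or Jun. Of these, 18 were measured, 1 rose and none fell, against 1.34% and 1.02% of all genes, and 3 had an unadjusted limma p under 0.05, against 13.0%. The list had a median log2 change of -0.01 and a range of -0.25 to 1.08. The gene that rose was Srf, which encodes the factor that binds the CArG box of Fos: it read 7.38, 7.50, 7.06 and 7.06 untreated and 8.37, 8.68, 8.23 and 8.05 after KCl. The groups were 0.55 apart, and the change was 2.12-fold (log2 change 1.08, SE 0.16, limma adjusted p = 0.0154). Its ternary complex partner Elk4 had a log2 change of 0.53 (adjusted p = 0.0707), the ubiquitin ligase Cop1, which targets Jun, 0.34 (0.323), and the kinase gene Rps6ka3, whose product RSK2 phosphorylates Fos and CREB, 0.35 (0.565). Without untreated replicate 3 the adjusted p of Srf was 0.0501. Elk4 passed where arrays were centred on their medians (0.0451) or normalized again (0.0298).

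Of 28 listed genes known from other work as AP-1 or FosB targets, 27 were measured and none passed with limma, against 2.36% of all genes. Their median log2 change was 0.05, and 4 of the 27 had an unadjusted limma p under 0.05, against 13.0% of all genes. At a share of 2.36%, few calls would be expected among 27 genes. A linear model without moderation called none of the list, but it called only 129 of all 22180 genes. The smallest p-values were those of Vegfa, the endothelial growth factor (log2 change 0.84, adjusted p = 0.123), the enkephalin precursor Penk (0.34, adjusted p = 0.14), Sprr1a, a gene of regenerating axons (0.31, adjusted p = 0.318), and haem oxygenase Hmox1 (0.71, adjusted p = 0.359). Vegfa read 8.08, 8.01, 8.92 and 8.17 untreated and 9.35, 8.69, 9.29 and 9.22 after KCl, so the groups overlapped at untreated array 3. Vegfa passed with the replicate block (adjusted p = 0.039), the 1 of the list that did, where 2.43% of all genes rose. It also passed without untreated replicate 3 (0.0421). Only 14 of the 27 had a mean over the 8 arrays above that of the median gene (4.758), and a fit among such brighter genes called none of them. The rest were dimmer, among them Penk and Sprr1a, which had means below 5 in both groups. RMA compresses differences at such low values, so the lack of calls there does not show that these genes were unchanged.

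**Figure D5:**
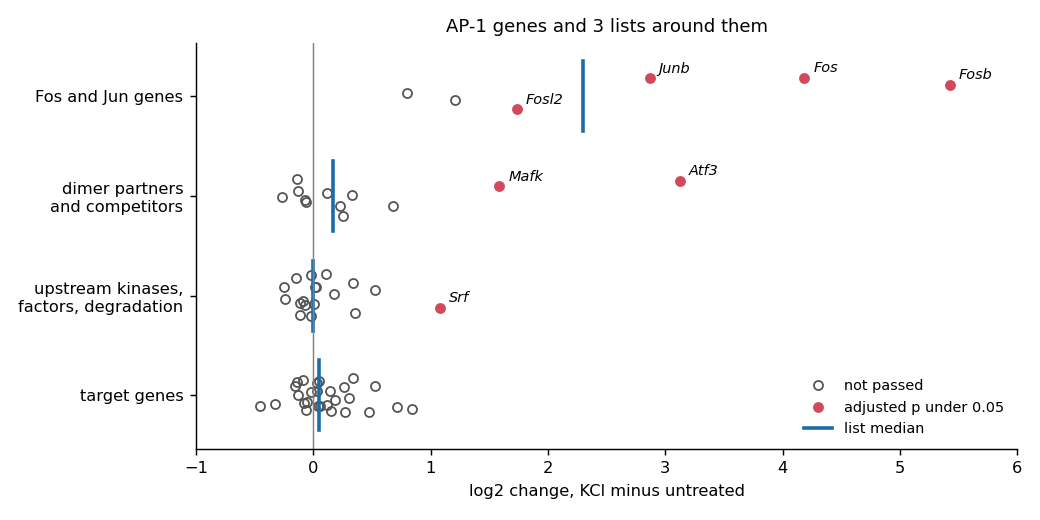
The log2 change after KCl of each measured gene in 4 lists, filled where the adjusted p was under 0.05, with a blue bar at each list's median; vertical scatter within a list carries no value. The medians are 2.30 for the 6 Fos and Jun genes, 0.17 for 12 partners, -0.01 for 18 upstream genes and 0.05 for 27 targets.

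For each of the 6 genes, the 3 genes with the most similar profile over the 8 arrays were taken by Pearson's r among 10516 brighter named genes. Arrays of both groups enter r, so it mostly reflects the step between groups, and shared array effects enter too; it is given as a description. Closest to Fos were Sik1, a salt-inducible kinase (r = 0.995), the nuclear receptor Nr4a2 (0.994) and the zinc finger factor Klf4 (0.993). Sik1 read 6.35, 5.59, 5.20 and 6.06 untreated, the same order of arrays as Fos, and 8.08 to 8.53 after KCl, a 5.7-fold rise (limma adjusted p = 0.0023). Closest to Fosb were Ccnk, which encodes cyclin K (r = 0.992), Nr4a2 (0.991) and the poly-ADP-ribosylating enzyme gene Tnks (0.989). Ccnk rose 1.97-fold (limma adjusted p = 0.00429) and Tnks 2.35-fold (adjusted p = 0.00175), far smaller steps than that of Fosb with the same order of untreated arrays at the top.

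Closest to Fosl2 were the kinase gene Prkx (r = 0.997, 2.29-fold, limma adjusted p = 0.00356), Nfil3 (0.996, 10.2-fold, 0.000746) and Suco (0.994, 1.8-fold, 0.00356), and all 3 rose. Closest to Junb were the zinc finger factor gene Egr4 (r = 0.997), the splicing factor gene Cwc25 (0.994) and Fndc3b (0.994). Cwc25 rose 6.65-fold, from 5.58 ± 0.19 to 8.32 ± 0.26 (SD, n = 4 each, limma adjusted p = 0.000166), and Fndc3b 1.49-fold (adjusted p = 0.0115).

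Closest to Jun were Nyap2, an adaptor of phosphoinositide 3-kinase in neurons (r = 0.984), the cytolinker gene Dst (0.98) and Ankrd13c (0.975). None of these 3 passed (limma adjusted p = 0.103, 0.298 and 0.143), and Nyap2 (0.0137) and Ankrd13c (0.0304) did with the replicate block. Each had its lowest value in untreated array 1, as Jun did: Nyap2 read 5.87 there against 7.03 to 7.59 in the other 3 untreated arrays. Closest to Jund were Ubtd2 (r = 0.971), Vegfa (0.968) and the small GTPase gene Rhoq (0.967), none of which passed (limma adjusted p = 0.13, 0.123 and 0.12). Rhoq passed with the replicate block (0.0336), and Ubtd2 passed without KCl replicate 2 (0.045), the array in which Jund, Ubtd2, Vegfa and Rhoq were all lowest of the KCl group.

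Among 49 measured cell type markers, 2 passed, against 2.36% of all genes, and both are named after their values were seen. The astrocyte glutamate transporter gene Slc1a2 fell by 0.78 on the log2 scale (limma adjusted p = 0.0479) while the other 6 astrocyte markers did not pass, and it was not called with the replicate block (0.062), without both arrays numbered 1 (0.13) or when any single array other than untreated replicate 2 was left out (up to 0.14). The replication clamp gene Pcna rose 1.75-fold (limma adjusted p = 0.0191), and it did not pass when KCl replicate 2 (0.051), 3 (0.0667) or 4 (0.0613) or untreated replicate 4 (0.0521) was left out. With the replicate block, Pax6 (log2 change 0.92, adjusted p = 0.0461) and the inhibitory neuron gene Gad2 (-0.49, 0.0458) passed too. Gad1, the other inhibitory neuron gene listed, went the other way and did not pass with the block (log2 change 1.08, limma adjusted p = 0.0765). Over the 7 progenitor and cycling markers the mean log2 value was 5.60 to 6.36 untreated and 6.11 to 6.81 after KCl, and the KCl array was the higher in 4 of 4 same-numbered pairs. All 7 of these markers had a positive log2 change, from 0.02 to 0.92, as did 10456 of all 22180 genes. Their median was 0.59 against -0.01 over all genes. Without both arrays numbered 1, 6 of the 7 were positive. The mean of the endothelium markers and that of the fibroblast and meninges markers were also higher in 4 of 4 pairs, with median log2 changes of 0.10 and -0.03. The part of these markers in the changes of the Fos and Jun genes was not tested.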

How the data were processed

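RNA of 8 cultures was measured on 8 Affymetrix arrays. The table deposited by the authors holds 1 log2 value per probe set and array, made with RMA, with Partek also named, per the submitters' processing notes, without version, settings or genome build. RMA corrects background, normalizes between arrays and compresses differences near background. The number of arrays limits precision.

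Groups and replicate numbers came from the titles. Probe sets were named from the supplied platform annotation: 23521 had 1 symbol, 1814 several and 9137 were unnamed here. Of 22180 genes, 21994 had an identifier in the RefSeq table of GRCm38.p6. The test was limma 3.58.1 under R 4.3.3 (lmFit, eBayes, group as the single term, two-sided, Benjamini-Hochberg over all genes, threshold 0.05), tested on simulated data. Same-numbered arrays deviated together from their group means (r = 0.638, 0.234, 0.409 and 0.368 across genes), so the numbers were taken to pair the arrays. Some unlike-numbered arrays did so too: untreated array 3 with KCl array 4 (r = 0.302) and untreated array 4 with KCl array 3 (0.269). The labels name no shared preparation, so the pairing and the replicate block rest on an assumption drawn from these same data. The fit over all genes was also run with a replicate block. The fit over all probe sets, used for the shared Fosl1 probe set and the second Jund probe set, was not. p-values measure the spread between these cultures. The genes, lists and alternatives were chosen with earlier results of these data known. Named genes are the 6 measured genes; from each list those past the threshold, or up to 4 of smallest p; the 3 of most similar profile for each gene; and 4 markers added after their values were seen. The alternatives are given in the closing section. Promoter windows came from RefSeq. Figures were drawn with matplotlib 3.10.9.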

Additional observations from a re-analysis of the deposited data

Results flagged for a closer look

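Dixon's test for 1 array apart from the other 3 of its group was applied to both groups of 40 probe sets, and it marks about 1 in 20 groups by chance. It marked 2 of 80. Untreated array 1 read 6.45 for Atf3, against 4.70 to 4.87 in the other 3 untreated arrays. KCl array 4 read 4.32 for Maff, against 4.82 to 4.86 in the other 3 KCl arrays. No group of a Fos or Jun probe set was marked.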

How the results depend on the processing

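All 6 Fos and Jun genes were higher after KCl under every alternative run. Fosb, Fos, Junb and Fosl2 passed the threshold in all of them, with adjusted p up to 0.0238 (the linear model without moderation), except that the exact permutation test over 8 arrays was left unadjusted: it gave the smallest two-sided p that 4 against 4 arrays allow, 0.0286, for these 4 and for Jun, and 0.0571 for Jund. The number of these genes past the threshold was 4, and 4 to 5 with an array left out. Jun passed with the replicate block, with array weights (adjusted p = 0.0376), among brighter genes (0.0343) and with trended and robust eBayes (0.0258).

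The dimer partners past the threshold numbered 2, and 0 to 3 with an array left out, 1 without both arrays numbered 1 and 0 without moderation. For upstream genes the count was 1, and 0 to 1 with an array left out, 2 with arrays centred on their medians or normalized again and 0 without moderation. For targets it was 0, and 0 to 1 with an array left out and 1 with the replicate block. Over all genes it was 524, and 186 to 501 with an array left out (the lowest without KCl replicate 3), 985 with the replicate block and 129 without moderation. The replicate block lowered the median standard error from 0.142 to 0.119. Without moderation, Atf3 (adjusted p = 0.0862), Mafk (0.166), Srf (0.0764) and Pcna (0.0773) did not pass. Signal over background was not assessed, so the low values of the second Jund probe set, Penk, Sprr1a and untreated Fosb do not show absence.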
